A study of Mus musculus with 4 samples.

Results

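The 10 mouse genes of major histocompatibility complex (MHC) class II presentation were followed in single immune cells from melanomas that differ in their response to T cell therapy. They were taken by name from the 32285 genes of the count matrix, and all 10 were found. The list holds Ciita, the transactivator of the class II genes. It holds the chains of the classical peptide-binding dimers, H2-Aa, H2-Ab1 and H2-Eb1, and the invariant chain Cd74. It also holds the peptide exchange factor H2-DM (H2-DMa, H2-DMb1 and H2-DMb2) and its partner H2-DO (H2-Oa and H2-Ob). The tumours were grown from derivatives of YUMM1.7, a mouse melanoma line with mutant Braf, made to express ovalbumin (OVA) and injected into Rag2-/- mice, which have no T or B cells of their own. Every mouse received OVA-specific OT-1 CD8 T cells on day 7, and tumours were taken on day 10, 72 h after transfer. NTT was naive to targeted therapy (line Y1.7_NTT_3A6), RTT was resistant to it (line Y1.7_RTT_2B12), RTT_ROSA26 was resistant and carried a control guide, and RTT_PTGS12KO was resistant with both cyclooxygenase genes, Ptgs1 and Ptgs2, knocked out in the cancer cells. Live CD45+ cells were sorted, so the profiled cells are mostly immune cells and not the edited cancer cells. Each group is 1 sample, given by the labels as 1 tumour and by the study as pooled tumours, so there was no replicate and no test between groups was possible. All intervals below are 95% intervals that cover counting error only.

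Class II molecules are dimers of an alpha and a beta chain that carry peptides from the endosome to the cell surface for CD4 T cells. The invariant chain fills the groove of a newly made dimer, H2-DM later exchanges its remnant for a peptide, and H2-DO restrains H2-DM. The promoters of these genes share an X box and a Y box that are bound by the RFX complex and NF-Y, and CIITA binds to these factors rather than to DNA. Dendritic cells make class II molecules constitutively, and monocytes and macrophages raise them in response to interferon-gamma, which induces Ciita.

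Of the 10 genes, 8 lie within 224335 bases of chromosome 17 in build GRCm38, from the start of H2-Oa at 34092340 to the end of H2-Eb1 at 34316674. None of them overlapped its neighbour among the members. Ciita and Cd74 lie on other chromosomes, and all 10 are annotated as protein-coding. RefSeq promoter sequences (GRCm38.p6, 300 bases each) matched 7 of the 10 members, with 8 entries since H2-DMa has a pair of starts. The exceptions were H2-Ab1, Cd74 and Ciita. GCAAC, the core of the X box, followed after 15 to 30 bases by ATTGG, the Y box, was found on the gene strand in 4 of the 8 entries. Over all 32851 promoters of the same length, 0.411% held this pair on the gene strand and 0.834% on either strand. GCAAC alone was in 35.2% of promoters on either strand and ATTGG alone in 37.4%. The stretch from 110 to 11 bases before the start is shown for the 4 genes with the pair and for the H2-DM beta genes, with GCAAC and ATTGG in capitals where the pair was found and ATTGG alone in capitals in the H2-DM beta genes.
H2-Aa, chr17:34287834-34287933, minus strand: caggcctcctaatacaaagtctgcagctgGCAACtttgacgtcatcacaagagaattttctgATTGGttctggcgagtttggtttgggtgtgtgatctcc
H2-Eb1, chr17:34305757-34305856, plus strand: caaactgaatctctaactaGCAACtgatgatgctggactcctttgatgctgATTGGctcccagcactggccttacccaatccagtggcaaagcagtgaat
H2-Oa, chr17:34092269-34092368, plus strand: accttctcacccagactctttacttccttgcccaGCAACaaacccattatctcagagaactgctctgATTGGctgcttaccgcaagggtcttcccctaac
H2-Ob, chr17:34238795-34238894, plus strand: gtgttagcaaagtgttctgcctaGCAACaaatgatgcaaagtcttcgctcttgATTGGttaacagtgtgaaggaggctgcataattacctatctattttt
H2-DMb1, chr17:34153081-34153180, plus strand: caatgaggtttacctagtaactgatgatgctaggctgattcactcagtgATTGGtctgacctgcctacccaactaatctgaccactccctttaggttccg
H2-DMb2, chr17:34145139-34145238, plus strand: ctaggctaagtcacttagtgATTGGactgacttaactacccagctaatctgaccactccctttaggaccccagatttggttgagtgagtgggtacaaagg

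The pair began at position -81 from the start in H2-Aa, -91 in H2-Eb1, -76 in H2-Oa and -87 in H2-Ob, and the gap between the words was 28, 27, 28 and 25 bases. H2-Aa and H2-Eb1 thus held the same pair of words, at similar places, as the H2-DO genes. ATTGG without the pair was on the gene strand in H2-DMb1, H2-DMb2 and 1 of the H2-DMa entries. These matches are words in a window and not measured binding sites.

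Ciita lies at chr16:10480059-10528418, plus strand, and Cd74 at chr18:60803848-60812652, plus strand, in GRCm38.

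The samples held 6836 to 10296 cells and 69332486 to 146829369 unique molecular identifiers (UMIs, each a tag for 1 captured transcript end). The median UMIs per cell were 7292.5 in NTT and 12219 to 13280 in the resistant samples. A number at the end of each cell's name, with 3 values in all, was taken as the load of the chip, which is an inference from the names. No barcode was shared between samples within a load. The authors' cell type names, 17 in all, each had the marker list of their own type among their 2 highest-scoring lists. In Ctsk_Macro the macrophage list scored weakly, at 0.24 SD above the mean over types, and in cDC2 the plasmacytoid list scored above the cDC2 list, which was second. The macrophage list was also second in TAM_C1q, TAM_cycling and Ctsk_Macro, behind the melanoma list, and in TAM_H2Ab1, behind the B cell list, although the melanoma and B cell markers were at very low levels. TAM_H2Ab1 is named after a member, and all the clusters were made with these genes in use, so levels by cell type are descriptions. B cell markers summed to 3.13 to 7.44 UMIs per 1000000 (CPM) in the samples, so B cells, which carry class II in most tissues, gave little. Melanoma markers summed to under 1 CPM in each sample. Ptgs1 stood at 6.20, 68.1, 55.4 and 14.9 CPM in NTT, RTT, RTT_ROSA26 and RTT_PTGS12KO, and Ptgs2 at 562, 349, 231 and 349. These are levels in immune cells and do not check the knockout in cancer cells.

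All levels are in CPM, over the UMIs of the cells in question. Each UMI marks a transcript's 3' end, so no division by length was made, and levels of different genes are on this scale. Ciita had 75.4 CPM in NTT, 9.29 in RTT, 8.31 in RTT_ROSA26, with 48.8 in the knockout. NTT and the knockout were thus far above the 2 resistant samples that keep cyclooxygenase. The alpha chain H2-Aa had 5551, 828, 656 and 2677 CPM in the same order. The beta chain H2-Ab1 had 5819, 857, 700 and 2627. H2-Eb1, the beta chain of the other class II dimer, had 4797, 789, 636 and 2452. The invariant chain Cd74 had 1602, 277, 205 and 787. All 4 of these genes kept the same order of samples as Ciita, and their sum, called core class II here, was 17769, 2751, 2197 and 8543 CPM.

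H2-DMa had 747 CPM in NTT, 274 in RTT, 196 in RTT_ROSA26, with 560 in the knockout. H2-DMb1 had 641, 128, 109 and 379, again with NTT and the knockout on top. H2-DMb2 was much lower and varied less, at 30.8, 15.8, 17.5 and 23.6. The split between the beta genes is uncertain in part, since 25.9% of the 30-base words in the last 500 bases of H2-DMb1 transcripts also occurred in H2-DMb2. In the other direction, 1.05% of such words of H2-DMb2 occurred in H2-DMb1. The H2-DO genes were the lowest of the list. H2-Oa had 14.3, 6.44, 8.66 and 7.54 CPM and H2-Ob had 7.56, 2.46, 3.36 and 5.80, so that the H2-Oa level in the knockout lay between those of RTT and RTT_ROSA26.

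**Figure D1:**
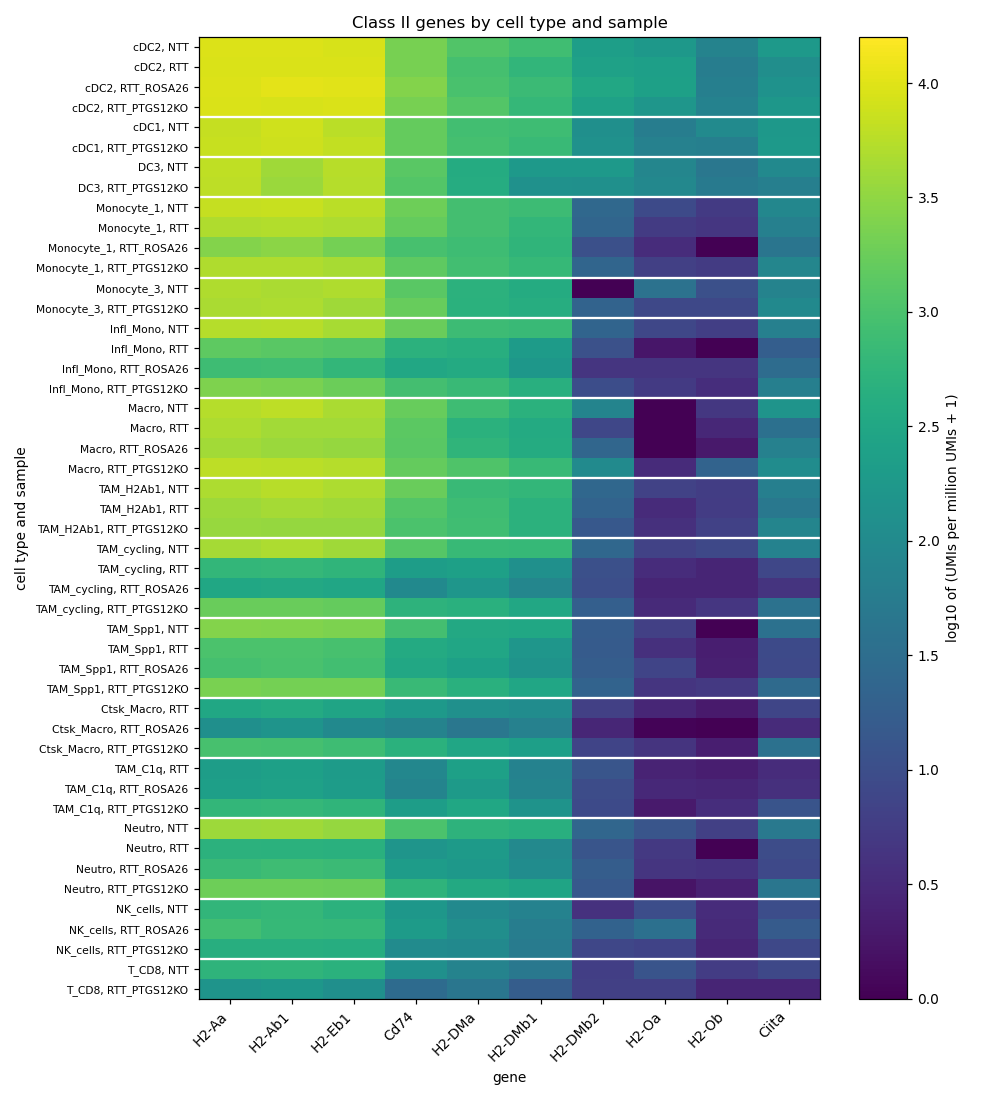
Level of each of the 10 class II genes (columns) in each cell type and sample with at least 20 cells (rows, mast and Myofibrobl cells not drawn), coloured by log10 of CPM plus 1. The classical genes are bright in all dendritic cell rows and darker in the TAM_C1q rows of the resistant samples, and H2-Oa and H2-Ob are brighter in the dendritic cell rows than in the others. H2-DMb2 is brightest in the dendritic cell rows, with Macro of the knockout next at 99.4 CPM.

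The comparison of NTT with RTT asks how the class II genes stood in tumours that differ in resistance. Over all cells, core class II was 2.69 higher on the log2 scale of CPM plus 1 (interval 2.69 to 2.70). Of the 8 members with at least 10 CPM on average over the samples, 7 were at least 2-fold higher in NTT, where 6.51% of 7054 genes were (6.37% were at least 2-fold lower, with no member among them). The exception was H2-DMb2, at 0.92. Ciita had the greatest difference of the members, 2.89, and H2-DMa, at 1.44, the smallest of the 7. The median over the 8 was 2.57, against -0.10 over all genes. H2-Oa and H2-Ob, below the minimum, differed by 1.04 and 1.31.

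RTT_PTGS12KO against RTT_ROSA26 asks what stood differently when the cancer cells lacked both cyclooxygenase genes. Core class II was 1.96 higher over all cells (1.95 to 1.96). Again 7 of the 8 members were at least 2-fold higher, where 4.05% of genes were higher and 1.86% lower, and H2-DMb2 was the exception at 0.41. Ciita differed by 2.42, H2-Aa by 2.03 and H2-DMa by 1.51, while H2-Ob differed by 0.64 and H2-Oa by -0.18. The median over the 8 was 1.92 and over all genes -0.12. H2-Aa, H2-Ab1, H2-Eb1, Cd74, H2-DMa and H2-DMb1 are also in a gene list that the study chose on these samples, so their direction here is not independent evidence.

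RTT_ROSA26 against RTT compares resistant tumours that both keep cyclooxygenase, and serves as a yardstick, although it shares a sample with each of the other comparisons. Core class II differed by -0.32 (-0.33 to -0.32), and 0 of 8 members were 2-fold higher, where 0.454% of genes were, or 2-fold lower, where 1.06% were. Members ran from -0.48 for H2-DMa to 0.38 for H2-Oa. When the cell types with at least 20 cells in both samples were given the same weights, the core difference was 0.79 for NTT over RTT (0.78 to 0.80), 1.08 for the knockout over its control (1.07 to 1.10) and -0.26 for the yardstick (-0.27 to -0.25). The yardstick was less settled than these counting intervals, since at fixed shares it was -0.061 with load 3 of the chip alone and -0.42 without dendritic cells, and over all cells it was -0.12 as a mean over cells. The differences over all cells in the first 2 comparisons were larger than those at fixed shares, but the cell types were not the same. NTT over RTT used 8 types and left out TAM_C1q, which held 42.4% of all UMIs of RTT. The weighted core level of RTT was then 9570 CPM, against 2751 over all its cells. The knockout over its control used 11 types and the yardstick 10, both with TAM_C1q. Within fixed shares, Ciita differed by 0.99 and 1.47, H2-Ab1 by 0.85 and 1.00, H2-DMa by 0.35 and 0.79, and H2-Oa by 0.10 and -0.45.

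The cells that held the class II transcripts differed between samples. In NTT, monocytes (Monocyte_1, Monocyte_3 and Infl_Mono) made up 80.1% of cells and held 84.9% of core UMIs. In RTT they were 6.55% of cells and held 20.5%, and macrophages (the TAM types and Ctsk_Macro) held 52.6%. In RTT_ROSA26 macrophages held 49.4% and monocytes 2.07%. In RTT_PTGS12KO monocytes were 39.0% of cells and held 49.2% of core UMIs, with 37.3% in macrophages. Dendritic cells held 7.40% of core UMIs in NTT, 21.0% in RTT, 39.7% in RTT_ROSA26, with 10.1% in the knockout, although they were 2.42% to 4.88% of cells. Without them, the core difference of RTT_ROSA26 from RTT over all cells went from -0.32 to -0.70 and that of the knockout from its control from 1.96 to 2.54. Fewer cells of a type and less RNA per cell cannot be told apart in such sums over a tumour.

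**Figure D2:**
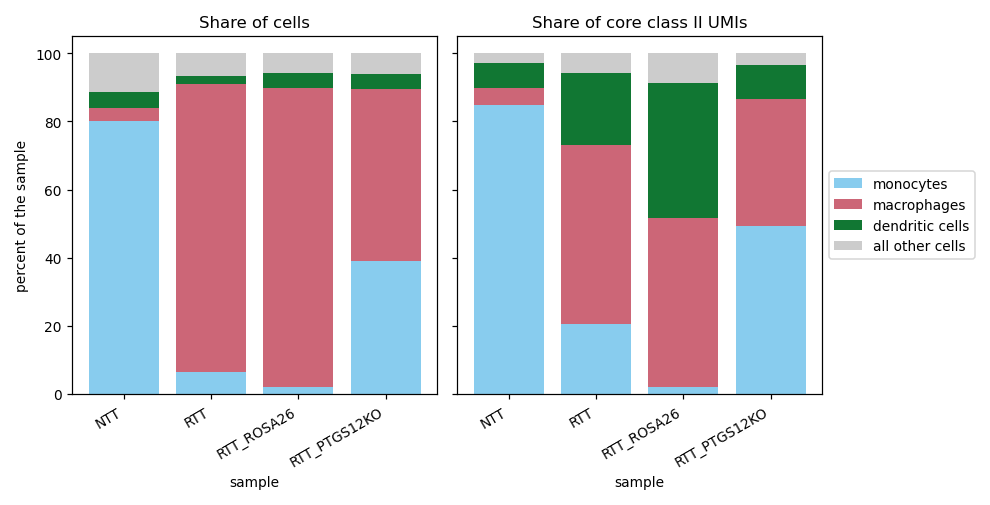
Share of cells (left) and of core class II UMIs (right) by class of cell in each of the 4 samples, in percent. Monocytes hold 84.9% of core UMIs in NTT and 2.07% in RTT_ROSA26, where dendritic cells hold 39.7%.

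For the H2-DO genes and H2-DMb2, dendritic cells mattered more. They held 48.9%, 69.4%, 72.9% and 59.1% of H2-Oa UMIs in NTT, RTT, RTT_ROSA26 and RTT_PTGS12KO, and 47.9%, 48.4%, 55.1% and 38.7% of H2-Ob UMIs. Their part of H2-DMb2 was 33.0%, 30.1%, 47.8% and 30.4%, against 6.04% to 13.0% for H2-DMa. H2-Oa, H2-Ob and H2-DMb2 had the greatest part in dendritic cells, and also the smallest differences of the members in both main comparisons over all cells.

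By the mean over samples with at least 20 cells, core class II was highest in cDC2, the conventional dendritic cells that present mainly to CD4 T cells, at 30569 CPM. Then came cDC1, which cross-present, at 22370 and DC3, the CCR7+ migratory dendritic cells, at 16747. Macro, Monocyte_3 and Monocyte_1 followed at 15974, 15578 and 15569, neighbours that did not differ beyond the spread over their samples. The means cover unlike samples, since cDC1, DC3 and Monocyte_3 were measured only in NTT and the knockout. In NTT, Macro at 17939 and Monocyte_1 at 21258 were above DC3 at 17126. In the knockout, Macro at 18852 was above DC3 at 16368, and Monocyte_1 at 15846 was below it. TAM_H2Ab1 had 13849, Infl_Mono 7865, TAM_cycling 5774, Neutro 5606 and TAM_Spp1 5478, and the ranges of the last 4 over samples overlapped. NK cells had 1843, Ctsk_Macro 1564, TAM_C1q 1168, CD8 T cells 1088, Myofibrobl 441 and mast cells 154. The macrophage types at the bottom, TAM_C1q and Ctsk_Macro, had means close to those of NK and T cells, which make little or no class II in mice. The NK mean also took in some cells with many core UMIs, given further on, so it is not a plain background level. The means of all these types cover unlike samples, and within a sample the values were not close. In the knockout TAM_C1q and Ctsk_Macro had 1993 and 3093, against 1368 in NK and 463 in CD8 T cells. In RTT_ROSA26 they had 774 and 443, against 2308 in 26 NK cells. For Ciita the order was led by cDC1 and cDC2 as well.

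**Figure D3:**
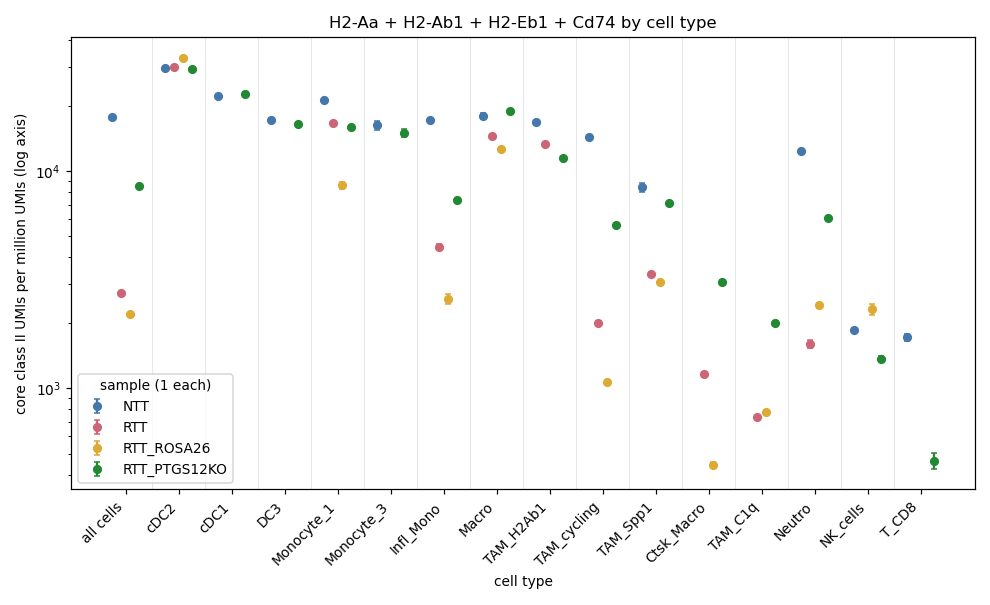
Core class II level (summed CPM of H2-Aa, H2-Ab1, H2-Eb1 and Cd74, log axis) for all cells and for each cell type with at least 20 cells (mast and Myofibrobl cells not drawn), with 1 point per sample and 95% counting intervals. The 4 cDC2 points lie between 29396 and 32963, while the TAM_cycling points run from 1070 in RTT_ROSA26 to 14395 in NTT.

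The cDC2 of all 4 tumours were close in class II. Their core class II was 29857 CPM in NTT (282 cells), 30061 in RTT (174 cells), 32963 in RTT_ROSA26 (288 cells), with 29396 in the knockout (344 cells). The highest was 1.12 times the lowest. In cDC2 all 10 members reached 10 CPM, and 0 of 10 were 2-fold different in any of the 3 comparisons, where 4.65%, 4.82% and 0.547% of 6581 genes were at least 2-fold higher and 5.71%, 2.48% and 3.63% lower. Ciita in cDC2 was 179, 117, 137 and 169 CPM, with both resistant samples that keep cyclooxygenase below the others, by 0.61 for NTT over RTT and 0.30 for the knockout over its control. H2-Oa was at 173, 231, 244 and 157, with those same samples above the others. In cDC1, measured in NTT (32 cells) and the knockout (37 cells), core class II was 22071 and 22669. In DC3 it was 17126 and 16368, in 89 and 81 cells. The cDC2 marker list summed to 1343 to 1565 CPM in these cells, but the monocyte list was 4916 in NTT, 743 in RTT, 741 in RTT_ROSA26, with 2349 in the knockout, and its part in the Ciita values was not tested.

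Monocytes of the naive and resistant tumours lay closer than the tumours as a whole. H2-Ab1 in all monocytes was 6664 CPM in NTT, 4242 in RTT, 1669 in RTT_ROSA26, with 4639 in the knockout, so RTT_ROSA26, with only 144 monocytes, stood apart. Core class II was 0.59 higher in NTT than in RTT, with 0 of 8 members at least 2-fold higher (1.63% of 6438 genes were), and 1.56 higher in the knockout than in its control, with 6 of 8 (1.82% of genes). The yardstick itself was at -1.42 there, with 5 of 8 at least 2-fold lower (1.86% of genes); the 2 resistant tumours with cyclooxygenase thus differed from each other by nearly as much as the knockout from its control. H2-DMa, at 858, 752, 534 and 837 CPM, differed least of the abundant members. H2-Oa and H2-Ob were at most 7.60 CPM in monocytes as a whole. Different types made up the monocytes, since Monocyte_1 gave 4977 of the 6619 in NTT and 384 of the 522 in RTT, but only 54 of the 144 in RTT_ROSA26, against 3347 of 4015 in the knockout.

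The monocyte types did not behave alike. In Monocyte_1, the main type, core class II was 21258 in NTT, 16595 in RTT, 8575 in RTT_ROSA26 (54 cells), with 15846 in the knockout. In Infl_Mono, the inflammatory monocytes, it was 17067, 4484, 2569 and 7340, a range of 6.64-fold against 2.48-fold in Monocyte_1. Infl_Mono had 6 of 8 members at least 2-fold higher in NTT than in RTT (3.10% of 6313 genes) and 7 of 8 in the knockout against its control (3.88%). Monocyte_1 had 0 (2.13% of 6468 genes) and 2 of 8 (4.02%). Without Infl_Mono, the core difference within monocytes was 0.36 for NTT over RTT, 0.93 for the knockout over its control and -0.999 for the yardstick, which was then the furthest from 0. Monocytes also differed in their markers, since the macrophage list summed to 5234 CPM in NTT, 15043 in RTT, 9129 in RTT_ROSA26, with 6257 in the knockout, and its part in the class II levels was not tested. Monocyte_3, the non-classical type, was measured in NTT and the knockout only, at 16227 and 14930 in 26 and 33 cells.

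Of the 3 classes, macrophages had the widest range. H2-Ab1 was 4838 CPM in the 308 macrophages of NTT, 540 in 6734 of RTT, 388 in 5993 of RTT_ROSA26 and 1579 in 5207 of RTT_PTGS12KO. Ciita was 63.2, 5.18, 3.71 and 31.6. Different clusters made up the macrophages of each sample. TAM_H2Ab1, named for a member, was 192 of the 308 cells in NTT, 63 in RTT, 11 in RTT_ROSA26, with 364 in the knockout, while TAM_C1q was 12, 3412, 2247 and 1556. The differences over all macrophages therefore mix types, and those within each type follow further on. Core class II was 3.08 higher in NTT than in RTT, with 7 of 8 members at least 2-fold higher (4.74% of 7061 genes). It was 2.11 higher in the knockout than in its control, also with 7 of 8 (2.52% of genes), and -0.52 in the yardstick, with 0 of 8 in either direction (0.524% of genes higher, 0.779% lower). H2-DMb2, at 22.6, 11.9, 9.31 and 14.8 CPM, was the exception in both. The monocyte marker list moved with these values, at 1753, 241, 290 and 603 CPM in the 4 samples in the same order, and the macrophage list was at 17068, 33313, 25806 and 15976. Their part in the result was not tested. Without TAM_H2Ab1 the core differences were 2.92, 2.00 and -0.45. The dendritic cell list (Flt3, Zbtb46 and Dpp4) was at 5.41, 1.01, 1.29 and 1.73, low beside 79.3 to 91.9 in cDC2. When cells with a UMI of a dendritic cell marker were left out, a choice made after the data were seen, the core differences were 3.15, 2.22 and -0.66.

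Among the macrophage types, cycling macrophages (TAM_cycling) had the widest range over the samples measured. Their core class II was 14395 CPM in NTT (79 cells), 2000 in RTT, 1070 in RTT_ROSA26, with 5631 in the knockout. TAM_C1q and Ctsk_Macro had too few cells in NTT to measure. Over the resistant samples alone, Ctsk_Macro had the wider range, 6.99-fold. All 8 members were at least 2-fold higher there in NTT than in RTT (4.19% of 7227 genes) and 7 of 8 in the knockout than in its control (2.96%). TAM_Spp1, named for osteopontin, had 8401 in NTT (20 cells), 3342, 3071 and 7099, with 6 of 8 in both comparisons (5.75% and 1.52% of 6396 genes). TAM_C1q, named for complement C1q, had 738 in RTT, 774 in RTT_ROSA26 and 1993 in the knockout. It was absent from NTT apart from 12 cells, and there 4 of 6 members were at least 2-fold higher in the knockout (1.20% of 6825 genes). Ctsk_Macro, named for cathepsin K, had 1157, 443 and 3093 in the same samples, with 7 of 7 (4.15% of 6936 genes), but 6 of 7 were also at least 2-fold lower in RTT_ROSA26 than in RTT (2.22%). The knockout was above both other resistant samples in each of these 4 types. TAM_H2Ab1 had 16868 in NTT, 13239 in RTT (63 cells) and 11442 in the knockout, so in core class II the knockout was below RTT. Its own control had only 11 cells of this type, with 1507 core UMIs of 156214, too few to measure. Ciita in this type was at 64.1, 46.3 and 82.0 CPM in NTT, RTT and the knockout. H2-DM was at 1330, 1318 and 1333. Macro, which was not counted with the tumour-associated types, had 17939, 14478, 12628 and 18852, in 21, 99, 130 and 96 cells.

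Over single cells, macrophages of all types together had unlike spreads in the 4 samples, which hold different types, TAM_H2Ab1 in most of the NTT cells and TAM_C1q in 3412 of 6734 RTT cells. Core UMIs per 10000 UMIs of the cell had a median of 150 in NTT macrophages, 1.68 in RTT, 1.47 in RTT_ROSA26 and 17.5 in the knockout. In RTT 81.1% of macrophages were under 10 and 5.88% were at 100 or more, and in RTT_ROSA26 86.4% and 4.00%. In the knockout 44.5% were under 10 and 20.7% at 100 or more, with the rest spread between. In NTT 8.12% were under 10 and 67.5% at 100 or more. In monocytes the medians were 202, 129, 5.78 and 148. In cDC2 they were 315, 302, 338 and 306, with at most 1.77% of cells under 10. In TAM_C1q the medians were 1.35 in RTT, 1.36 in RTT_ROSA26 and 3.34 in the knockout, beside 1.52 in NK cells of NTT, 2.10 in those of RTT_ROSA26 (26 cells) and 1.33 in those of the knockout.

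**Figure D4:**
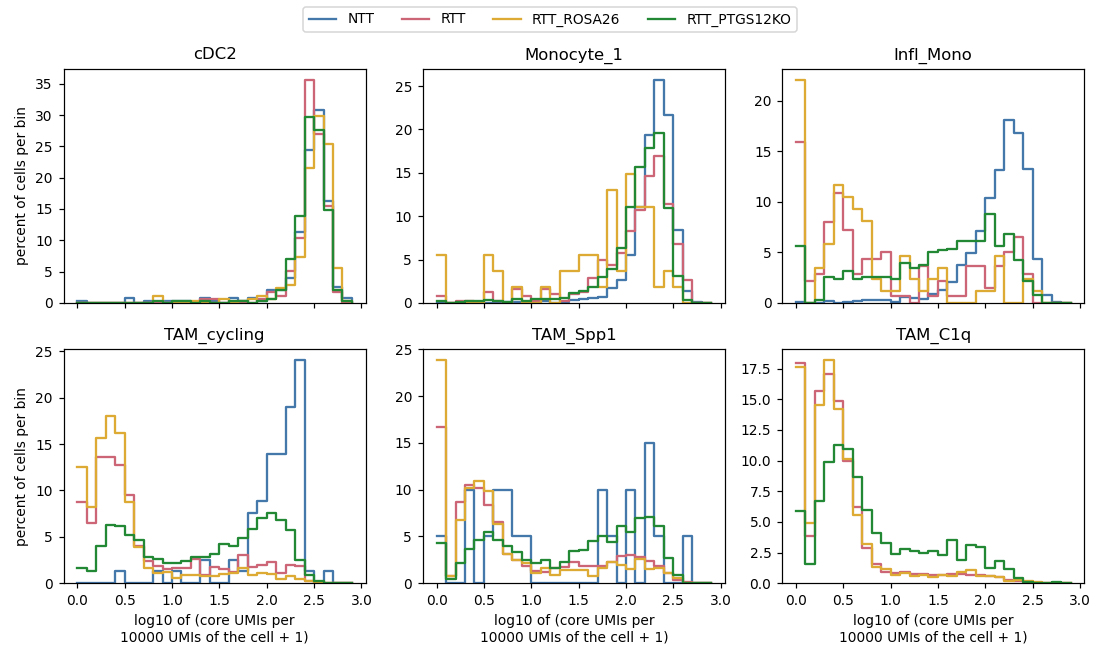
Distribution over cells of core class II UMIs per 10000 UMIs of the cell (x axis, log10 of the value plus 1; y axis, percent of cells per bin) in 6 cell types, with 1 line per sample. The 4 cDC2 lines lie on each other, the TAM_C1q lines of RTT and RTT_ROSA26 sit at the low end, and the knockout lines of TAM_cycling and TAM_Spp1 have a low and a high hump.

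In the resistant samples a small share of cells held much of the transcripts. The macrophages at 100 or more held 56.0% of the core UMIs of RTT macrophages, 46.8% in RTT_ROSA26, 63.1% in the knockout and 87.4% in NTT. In RTT 60.1% of these high cells were TAM_Spp1 and 13.4% TAM_C1q. In the knockout 39.8% were TAM_cycling and 34.1% TAM_Spp1, and in NTT 67.3% were TAM_H2Ab1. High and low cells had median UMIs of 12821 and 12669 in RTT, 11873.5 and 14066.5 in RTT_ROSA26 and 15320 and 14872 in the knockout. In NTT they had 11447 and 9183, the latter from 25 cells. Marker lists differed between them. The monocyte list was at 550 CPM in the high cells of RTT and 186 in those under 10, and at 924 and 338 in the knockout. The macrophage list was lower in high cells, at 19518 against 35743 in RTT and 13346 against 18386 in the knockout. The cDC2 list was at 601 against 86.7 in RTT, 519 against 27.7 in RTT_ROSA26 and 110 against 15.3 in the knockout, beside at least 1343 in cDC2 themselves. In NTT it went the other way, at 99.3 in the high cells and 114 in the 25 cells under 10, while the monocyte list was at 1996 against 540 and the macrophage list at 15257 against 21929. The dendritic cell list was at 6.23 against 0.49 in RTT. What these lists have to do with the class II level of the cells was not tested.

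Shares of cells with a UMI were compared after each cell was thinned to 2000 UMIs, which left out 1 to 12 cells per sample. H2-Ab1 was found in 98.9% of monocytes in NTT, 80.8% in RTT, 45.5% in RTT_ROSA26, with 93.3% in the knockout (99.7%, 89.3%, 66.0% and 97.0% without thinning). In macrophages the shares were 92.5%, 26.1%, 21.9% and 59.2% (96.4%, 60.2%, 60.0% and 87.6% without thinning). NK cells, taken as the background of free RNA, gave 22.2% in NTT, 28.0% in RTT_ROSA26 (25 cells) and 19.9% in the knockout, at median depths of 7669, 11528.5 and 15524 UMIs against 11598 to 15570 in macrophages. CD8 T cells gave 18.3% and 17.8% in NTT and the knockout. No NK group of RTT was large enough to measure. The pooled shares in macrophages of RTT and RTT_ROSA26 were within the range of NK cells, and those of NTT and the knockout were above it. The macrophage types differed, since a core UMI was found in 49.3% and 44.9% of TAM_Spp1 cells in RTT and RTT_ROSA26 and in 90.5% of TAM_H2Ab1 cells in RTT.

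In TAM_C1q the thinned share of cells with a core UMI was 32.0% in RTT and 31.8% in RTT_ROSA26. In NK cells it was 34.1% in NTT, 10 of 25 cells in RTT_ROSA26 and 33.7% in the knockout, while in Myofibrobl cells it was 12.9% (9.0 to 17.7) in RTT and 15.3% (7.2 to 27.0) in RTT_ROSA26. The TAM_C1q shares thus lay near those of NK cells, mostly measured in other tumours, and above those of Myofibrobl cells of RTT and RTT_ROSA26, and no single background level was fixed by these cells. The share was 58.0% in TAM_C1q of the knockout. H2-DMa was found in 36.0%, 30.5% and 42.3% of TAM_C1q cells in RTT, RTT_ROSA26 and the knockout, against 11.0%, 16.0% and 14.4% of NK cells in NTT, RTT_ROSA26 and the knockout. The interval for the 25 NK cells of RTT_ROSA26, 4.54% to 36.1%, included the TAM_C1q share of that sample. Ciita was found in 0.41% and 0.45% of TAM_C1q cells in RTT and RTT_ROSA26 and in 1.48% in the knockout, with 0.71% and 0.65% of NK cells in NTT and the knockout. H2-Oa was found in 25.5% to 38.5% of cDC2 cells and in 0.98% to 4.00% of NK cells.

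The ratio of H2-DM to core class II varied by cell type and, within a type, by sample. H2-DM (H2-DMa, H2-DMb1 and H2-DMb2 together) had 5.84 to 7.25 UMIs per 100 core UMIs in cDC2, 7.68 and 7.96 in cDC1, and 4.05 and 4.35 in DC3. It had 44.5 (43.7 to 45.3) in TAM_C1q of RTT, 35.7 (34.9 to 36.5) in RTT_ROSA26 and 23.5 (23.0 to 24.0) in the knockout. NK cells had 8.58 to 11.7, below each of the TAM_C1q values. The NK ratio is not a plain measure of background. In NTT, RTT_ROSA26 and the knockout, 4.65%, 7.69% and 5.88% of NK cells reached the core level used above for high cells. The part of those cells in the NK ratio was not tested. The 24 mast cells of RTT_ROSA26 had 57.4 (34.4 to 94.1), from 47 core UMIs. Infl_Mono had 8.70 in NTT, 14.3 in RTT, 20.8 in RTT_ROSA26, with 15.8 in the knockout. TAM_cycling had 9.39, 19.2, 23.6 and 14.4 and Monocyte_1 7.87, 8.94, 15.9 and 9.60, so that NTT was lowest and RTT_ROSA26 highest in all 3 types. How much of the core UMIs in TAM_C1q was free RNA was not tested. Over all macrophages the ratio was 8.50 in NTT, 22.0 in RTT, 22.5 in RTT_ROSA26, with 14.3 in the knockout. Over all cells, H2-DMa and H2-DMb1 thus differed in the same direction as core class II in both main comparisons, but by less.

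H2-DO, the restraint on H2-DM, had its highest levels in dendritic cells, which held 737 of its 1518 UMIs in NTT and 660 of the 1038 in RTT, then 899 of the 1324 in RTT_ROSA26 and 983 of the 1958 in the knockout. There were 11.3 to 16.8 H2-DO UMIs (H2-Oa and H2-Ob together) per 100 H2-DM UMIs in dendritic cells as a whole, and 17.4 and 21.4 in DC3. Monocytes as a whole had 0.48 to 0.73 and macrophages 0.75 to 1.44. Lymphocytes, low in both, did not share these low ratios. NK cells had 6.56 in NTT, 18.7 (10.4 to 31.6) in RTT_ROSA26 from 17 H2-DO UMIs, with 4.87 in the knockout, and CD8 T cells had 12.6 and 10.7 in NTT and the knockout, from 25 and 8 UMIs. In cDC2 H2-Oa had 215 to 390 UMIs per 100 of H2-Ob, and in cDC1 58.3 in NTT and 109 in the knockout, with intervals of 35.2 to 94.9 and 66.8 to 177, so only the first excluded equal counts. The ratio of the H2-DM beta genes also varied by type. H2-DMb1 had 2521 to 3047 UMIs per 100 of H2-DMb2 in the monocytes of NTT, RTT and the knockout (those of RTT_ROSA26 had only 6 H2-DMb2 UMIs beside 329 of H2-DMb1, too few for a ratio), 537 and 633 in cDC1, 220 to 355 in cDC2, and 104 and 106 in DC3, where both intervals included equal counts. The part of the words shared by H2-DMb1 and H2-DMb2 in this ratio was not tested.

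**Figure D5:**
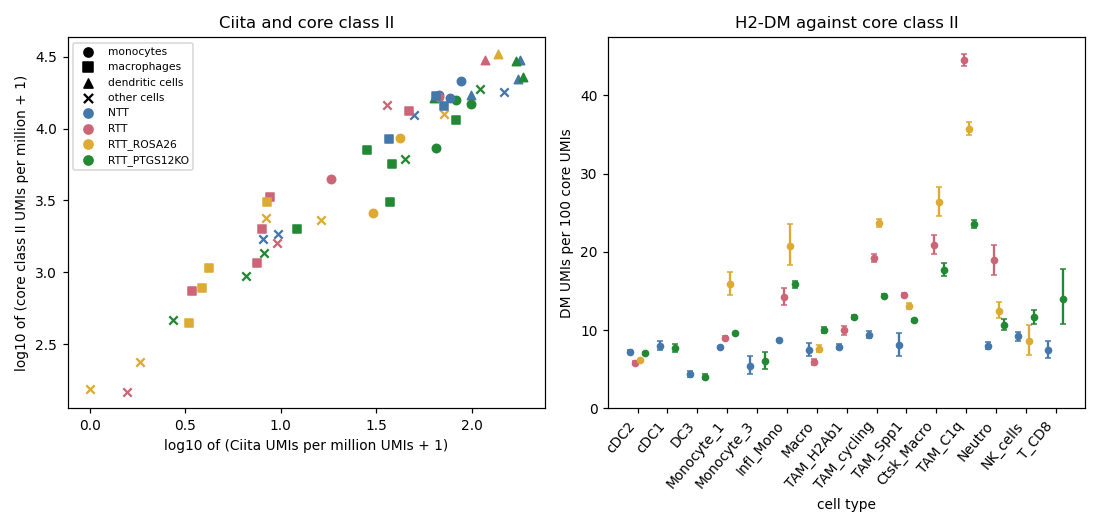
Left, Ciita against core class II in each cell type and sample with at least 20 cells (log10 of CPM plus 1 on both axes), with symbols for the class of cell and colours for the sample. Right, H2-DM UMIs per 100 core class II UMIs by cell type, with 95% counting intervals and the same colours (mast and Myofibrobl cells not drawn here). Of the values drawn, TAM_C1q of RTT is highest, at 44.5.

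Ciita was the gene whose pattern was most like core class II. Over the 52 groups of cell type and sample with at least 20 cells, Pearson's r of log2 levels was 0.97, the highest of 7150 genes ranked, which shared the same libraries and depths. H2-DMb1 followed at 0.94, Rnase6 at 0.93, H2-DMa at 0.92, Plbd1 at 0.91 and Rab43 at 0.89, and Lsr, Nod2, Psme1 and Slco3a1 completed the 10 at 0.85 to 0.86. H2-DMb2 had 0.76, H2-Ob 0.70 and H2-Oa 0.57. Among themselves, H2-Aa, H2-Ab1, H2-Eb1 and Cd74 had r from 0.98 to 1.00, and H2-Oa and H2-Ob had 0.85. The genes most like Ciita were H2-Aa, H2-Ab1, H2-Eb1 and Cd74, each at 0.96 to 0.97, then Rnase6 at 0.95. These r describe groups that are not independent, and no test was made of them.

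Regulators of class II transcription were taken over all cells. Irf1, an interferon-induced factor, was at 346, 104, 32.5 and 242 CPM in the 4 samples in the same order, and differed by 1.72 for NTT over RTT and 2.86 for the knockout over its control. Irf8, a factor of the monocyte and dendritic lineages, was at 377, 131, 125 and 317, and differed by 1.51 and 1.33. Spi1, another factor of myeloid cells, was within 2-fold in every comparison over all cells. Irf1 also differed in the yardstick, by -1.65, where Ciita differed by -0.14. The RFX, NF-Y and CREB genes that bind the promoters directly (Rfx5, Rfxap, Rfxank, Nfya, Nfyb, Nfyc and Creb1) were all within 2-fold in every comparison over all cells, and Rfx5 was the furthest from 0, at 0.75 for NTT over RTT. Rfx5, at 3.17 to 6.68 CPM, and Rfxank, at 7.17 to 10.2, were on average below the 10 CPM minimum for a 2-fold call. Ifng, the interferon-gamma gene, was at 64.6, 0.61, 0.65 and 72.4 CPM over all cells. These sums rest on few cells, with 10063 Ifng UMIs from 45 CD8 T cells in the knockout and 3397 from 93 in NTT. RTT and RTT_ROSA26 held only 1 and 2 CD8 T cells. In NK cells Ifng was at 142 CPM in NTT, 23.9 in RTT_ROSA26 (26 cells) and 84.7 in the knockout. The part of Ifng in the class II levels was not tested.

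Of 7 genes of peptide preparation, none was at least 2-fold higher in NTT than in RTT over all cells (6.51% of all genes were), and 4, Ctsl, Lgmn, Ctsd and Ctsb, were at least 2-fold lower (6.37% of all genes were), at -2.38, -1.62, -1.36 and -1.28. Ctss, the cathepsin that trims the invariant chain in these cells, was at 3343, 2296, 1874 and 2438 CPM, and Psap, the precursor of the saposins, at 946, 687, 571 and 733, both with the samples in the order of core class II. Ifi30, a thiol reductase of the endosome, was at 973, 977, 959 and 1168. In the knockout against its control, Ctsd was at -1.14 (1.86% of all genes were at least 2-fold lower) and the other 6 were within 2-fold. Within macrophages 2 of the 7, Ctsl and Ctsd, were at least 2-fold lower in NTT than in RTT, where 3.44% of 7061 genes were. Of 3 costimulatory genes, Cd40 was at 93.0, 10.5, 11.4 and 45.7 CPM, differing by 3.04 and 1.92, while Cd80 and Cd86 were within 2-fold over all cells. Within macrophages Cd80 was 2-fold lower in NTT than in RTT, at 8.12 against 18.6 CPM (-1.10), from 33 UMIs in NTT. March1, a ligase that removes class II from the surface, was at 104, 46.8, 38.1 and 49.4, differing by 1.14 for NTT over RTT, and March8, Cd83 and Tmem127 were within 2-fold over all cells. The class II gene H2-Eb2 reached at most 1.38 CPM over all cells, but 86.8 in DC3 of NTT and 49.5 in DC3 of the knockout. Cd4 and Lag3, which bind class II on T cells, reached at most 1.78 over all cells, with 19.9 for Cd4 in Macro of RTT_ROSA26 and 7.24 for Lag3 in Ctsk_Macro of the knockout as the highest values by type.

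Cells outside the myeloid presenting types were counted too. Core class II in Neutro was 12330 CPM in NTT, 1595 in RTT, 2405 in RTT_ROSA26, with 6095 in the knockout, in 106 to 146 cells, which is the order of the tumour sums except for the resistant pair. In both main comparisons 7 of 8 members were at least 2-fold higher there (4.69% and 4.49% of 6542 genes). The monocyte list had 4839, 1769, 1145 and 3431 CPM in these cells, and its part in the result was not tested. NK cells had 1853 in NTT, 2308 in RTT_ROSA26 (26 cells) and 1368 in the knockout, and CD8 T cells 1712 and 463. Myofibrobl cells had 147, 237 and 939 in RTT, RTT_ROSA26 and the knockout, and 6 of 6 members were at least 2-fold higher in the knockout than in its control (3.51% of 6887 genes), in 37 and 59 cells. The median Myofibrobl cell had 0.67 core UMIs per 10000 in the knockout and 0.47 in its control, and 5.41% of the 37 cells of the knockout were at 100 or more, against none of the control.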

How the data were processed

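Cell Ranger output aligned to mm10 was filtered and clustered by the authors with Seurat 4.3.0, per the submitters' notes and the study's methods, and the deposited file holds UMI counts per gene and cell with the authors' cell type names. No cell was removed here: every deposited cell had over 1000 genes. Counts were summed over the cells of a sample or cell type and divided by their total UMIs to give CPM (69332486 to 146829369 per sample, 4 samples). With 1 sample per group no test was made. Differences are log2 ratios of CPM plus 1, with exact Poisson or binomial intervals (a normal approximation at fixed cell type shares), and a difference counts as 2-fold among genes of at least 10 CPM. Intervals cover counting error only. Groups under 20 cells were left out. Shares of cells were taken after thinning to 2000 UMIs (seed 1). No doublet step is given in the sources used here and none was run. The named genes are all 10 members, the related lists, and the 10 genes with the highest r with core class II or with Ciita. Members and lists were chosen with earlier results of these data known. The calculation was tested on simulated data. Python 3.11.15, numpy 2.4.6, scipy 1.17.1, pandas 2.3.3, R 4.3.3 with edgeR 4.0.16 (TMM factors as an alternative) and matplotlib 3.10.9 were used. Genes were placed by GENCODE coordinates of GRCm38. H2-Ea was not analysed here. Some items of the related lists and of the tumour line's description are not reported here.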

Additional observations from a re-analysis of the deposited data

How the results depend on the processing

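With 1 sample per group, every interval covers counting error only and no difference between tumours could be set against a spread between animals. No paired analysis was possible because there was just 1 sample in a group. For core class II, 91 of 120 alternative values lay outside the counting interval of the reported one and 29 within it, and 0 changed sign. Among the single members it was 42 of 60. With 10 in place of 1 added to the CPM, no core value lay outside. Values below are log2 differences in the order NTT over RTT, knockout over control and yardstick (RTT_ROSA26 over RTT), unless named, and only those outside the interval are given. With TMM factors it was over all cells 2.84, 2.09, -0.36, at fixed shares 0.94, 1.22, -0.29, in monocytes 0.62 (NTT over RTT), 1.64 (knockout over control) and in macrophages 3.06, 2.21, -0.62. With a mean over cells it was over all cells 2.49, 1.73, -0.12, at fixed shares 0.78 (NTT over RTT), -0.31 (yardstick), in monocytes 0.58 (NTT over RTT) and in macrophages 3.21, 2.06, -0.43. Without the 5% of cells with most UMIs it was over all cells 2.72, 2.01, -0.35, at fixed shares 0.81 (NTT over RTT), -0.31 (yardstick), in monocytes 0.56, 1.49, -1.37 and in macrophages 3.19, 2.27, -0.61. With load 1 alone it was over all cells 2.80, 1.98, -0.24, at fixed shares 0.90, 1.25, -0.25, in monocytes 0.66, 1.37, -1.20 and in macrophages 2.96 (NTT over RTT), 2.13 (knockout over control). With load 2 alone it was over all cells 2.54, 1.97, -0.48, at fixed shares 0.77, 1.21, -0.27, in monocytes 0.49 (NTT over RTT), -1.53 (yardstick) and in macrophages 2.97, 2.17, -0.69. With load 3 alone it was over all cells 2.76, 1.94, -0.23, at fixed shares 0.91, 1.15, -0.061, in monocytes 0.66, 1.69, -1.48 and in macrophages 3.30, 2.05, -0.36. Without dendritic cells it was over all cells 2.96, 2.54, -0.70 and at fixed shares 0.88, 1.35, -0.42. With a stricter cell filter (1500 genes, 10% mitochondrial UMIs) it was over all cells -0.33 (yardstick), at fixed shares 0.83 (NTT over RTT) and in monocytes 1.47 (knockout over control), -1.33 (yardstick). With types of at least 50 cells it was at fixed shares 0.85 (NTT over RTT). Without Infl_Mono it was in monocytes 0.36, 0.93, -0.999. Without cells with a dendritic marker UMI, chosen after seeing the data, it was in monocytes 0.64, 1.76, -1.61 and in macrophages 3.15, 2.22, -0.66. Without TAM_H2Ab1 it was in macrophages 2.92, 2.00, -0.45. With Macro added it was in macrophages 2.995, 2.02, -0.48. Without a minimum level, 878 genes were at least 2-fold higher and 1165 lower in NTT than in RTT (459 and 449 with it), 456 and 263 in the knockout than in its control (286 and 131), and 52 and 212 in the yardstick (32 and 75). The share of cells with an H2-Ab1 UMI at 5000 UMIs was 99.7%, 86.7%, 66.0% and 96.2% in monocytes and 95.8%, 39.5%, 36.2% and 73.1% in macrophages of NTT, RTT, RTT_ROSA26 and RTT_PTGS12KO, and unthinned it was 99.7%, 89.3%, 66.0% and 97.0% in monocytes and 96.4%, 60.2%, 60.0% and 87.6% in macrophages.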
